A study of Mus musculus with 18 samples.

Results

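The olfactory receptor genes of mouse chromosome 9 were described by their position in maps of lamin B1, H3K9me3 and Foxa2 binding in liver. The members are all protein-coding genes of chromosome 9 in the GENCODE annotation of mm10 whose symbol is Olfr followed by a number. There are 132 of them, 10.9% of the 1210 protein-coding genes of the chromosome, and the annotation holds 21951 protein-coding genes in all. A further 1003 Olfr genes lie on other chromosomes, and the other 1078 protein-coding genes of chromosome 9 served as the comparison. Of the members, 3 have names ending in ps1 (Olfr839-ps1, Olfr896-ps1 and Olfr911-ps1), although the annotation lists them as protein-coding.

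All chromatin came from livers of C57BL/6 mice. Lamin B1 and H3K9me3 (histone H3 trimethylated at lysine 9) were profiled by ChIP-Seq in male mice without a mutation, aged 3 months (young) or 21 months (old), with 2 replicates per antibody and age. Foxa2, a forkhead transcription factor of hepatocytes, was profiled at 12 weeks in wild-type mice and in mice lacking Zmpste24, the protease that matures lamin A, with 3 replicates per genotype. The loss of Zmpste24 is constitutive and present in every cell of the animal, so it is a model of a lamina defect and not of age itself. The replicates were merged before regions were called, and each of the 6 lists used here gives genome positions alone. No value per mouse, no spread between replicates and no depth can be read from them, and no test was run, so every difference below is a difference between lists. Foxa2 sites were read at 8 hepatocyte genes (Alb, Apoa1, Apob, Serpina1c, Cyp2e1, Hnf4a, Tat and Pck1). Of these, 7 had a wild-type and 6 a mutant site within 50 kb. The gene body was overlapped in 4 and 5 of them, beside 10.6% and 13.5% of all protein-coding genes. The share of all genes within 50 kb was not counted, and the median distance of the other chromosome 9 genes was 82 and 81 kb. These counts therefore do not check the tissue, and they leave out the lamin B1 and H3K9me3 lists. For H3K9me3, only the names of the lists say which age they belong to.

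Olfactory receptors are G protein-coupled receptors that span the cell membrane, and each olfactory sensory neuron uses a single allele of a single receptor gene. Their genes lie in tandem clusters that arose by duplication, and their expression in liver was not measured here. In olfactory neurons the unused clusters are packed into heterochromatin rich in H3K9me3, and the lamina, the protein mesh under the nuclear membrane that contains lamin B1, is a common partner of silent chromatin in many cell types.

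The 132 genes formed 2 clusters, taken as runs of Olfr genes that start within 1 Mb of each other. Cluster 1 held 37 genes from Olfr24 to Olfr18 (chr9:18751507-20336094, 1585 kb), with a median spacing of 38.4 kb between starts. Cluster 2 held 95 genes from Olfr160 to Olfr986 (chr9:37708964-40190134, 2481 kb), with a closer median spacing of 23 kb. The spans add up to 4.07 Mb, 3.36% of the assembled chromosome, and 17373 kb lie between them. Of the members, 88 are on the plus strand, 22 in cluster 1 and 66 in cluster 2. The gene bodies measured 0.93 to 26 kb with a median of 5.48 kb, against a median of 24.2 kb for the other genes of the chromosome. Their GC content ran from 30.9% to 45% with a median of 36%, against 45.5% for the other genes. Only 4 other protein-coding genes lie inside the spans, Zfp317 in cluster 1 and Vwa5a, AW551984 and Tmem225 in cluster 2.

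Sequences are shown for the genes of the single lamin B1 domain found inside the clusters, because it is there that a member met the lamina mark. The promoters (250 bases before to 50 after the start) are those of RefSeq on GRCm38.p6, and 109 of the 132 members matched that table. RefSeq starts can differ from GENCODE's, and many of these stretches lie wholly inside the GENCODE gene body. Among those printed, this holds for Olfr888, Olfr889 and Olfr890, whose GENCODE bodies begin at 38108128, 38115198 and 38142517. Such stretches are called promoters by the RefSeq start only. Capitals mark any match, on either strand, to the forkhead word TGTTTAC, the O/E word TCCCNNGGG of Ebf factors, the homeodomain word TAATTA or the TATA box word TATAAA. Olfr885 (chr9:38061072-38061371, plus strand) held a forkhead word, while Olfr888 (chr9:38108438-38108737, plus strand), Olfr889 (chr9:38115548-38115847, plus strand) and Olfr890 (chr9:38142887-38143186, plus strand) each held a TATA box word on the opposite strand.
Olfr885 promoter: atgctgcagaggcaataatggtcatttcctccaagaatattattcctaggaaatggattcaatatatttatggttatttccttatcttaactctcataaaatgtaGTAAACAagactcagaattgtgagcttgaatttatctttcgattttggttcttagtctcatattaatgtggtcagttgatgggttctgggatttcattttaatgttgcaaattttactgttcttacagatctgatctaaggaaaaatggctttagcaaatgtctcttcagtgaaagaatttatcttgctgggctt
Olfr888 promoter: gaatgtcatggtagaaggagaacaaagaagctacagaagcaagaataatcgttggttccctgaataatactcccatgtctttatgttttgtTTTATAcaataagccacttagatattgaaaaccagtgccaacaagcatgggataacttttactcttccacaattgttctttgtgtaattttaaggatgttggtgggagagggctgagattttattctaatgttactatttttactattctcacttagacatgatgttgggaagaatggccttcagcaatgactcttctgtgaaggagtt
Olfr889 promoter: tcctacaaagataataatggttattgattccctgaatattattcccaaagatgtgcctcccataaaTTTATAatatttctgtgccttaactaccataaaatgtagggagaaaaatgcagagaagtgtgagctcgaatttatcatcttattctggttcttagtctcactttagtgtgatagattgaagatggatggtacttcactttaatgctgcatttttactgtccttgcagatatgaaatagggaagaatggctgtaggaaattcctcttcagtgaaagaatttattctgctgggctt
Olfr890 promoter: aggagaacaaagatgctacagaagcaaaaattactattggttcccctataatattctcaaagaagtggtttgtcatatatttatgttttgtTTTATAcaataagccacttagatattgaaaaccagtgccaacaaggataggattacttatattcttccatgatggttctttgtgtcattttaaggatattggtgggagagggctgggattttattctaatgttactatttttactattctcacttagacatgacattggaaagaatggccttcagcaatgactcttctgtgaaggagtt

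Of the 7 members in that domain, 6 had a promoter in the table, and Olfr884 had none. Across the 15 pairs of these 6 promoters the longest identical run was 8 to 57 bases, with a median of 11. The longest, 57 bases, joined Olfr888 and Olfr890 and began at base 80 of both, so it includes their TATA box word. Olfr885 shared 21 bases with Olfr887 and 21 with Olfr889. The promoters of Olfr887 and Olfr891 are not printed. The former held none of the 4 words, and the latter held a TATA box word on its own strand.

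Over all 109 matched promoters the TATA box word was the most frequent, present in 49 (45%), against 14.2% of all 27025 promoters of the table and 40.6% of the 835 promoters of Olfr genes on other chromosomes. The homeodomain word was present in 28 (25.7%), against 5.31% of all promoters and 17.7% of the other Olfr promoters. The forkhead word was found in 8 (7.34%), against 3.55% and 5.75%, in Olfr837, Olfr849, Olfr885, Olfr895, Olfr917, Olfr27, Olfr948 and Olfr986. The O/E word was found in Olfr147 and Olfr983 alone, 1.83% against 6.43% of all promoters and 2.63% of the other Olfr promoters. The words TAATTA and TATAAA are poor in G and C, and the median GC content was 34% in these promoters, 35.3% in other Olfr promoters and 52.7% in all promoters, so base composition moves with these shares and its part was not tested. Many of the 109 stretches lie inside GENCODE gene bodies, so the shares need not describe sequence before a gene start.

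Few olfactory receptor genes lay in called lamin B1 domains at either age. In young livers 7 of the 132 gene bodies (5.3%) were touched by a lamin B1 domain over at least 1 bp, against 47.9% of the other protein-coding genes of the chromosome and 38.8% of all protein-coding genes. In old livers 0 of 132 were touched, against 81.3% of the other genes of the chromosome and 64.8% of all genes. By age, 7 members were touched in young livers only (3.06% of the other genes), 0 in old livers only (36.5%) and 0 at both ages (44.8%). The remaining 125 members (94.7%) were touched at neither age, against 15.7% of the other genes. The lists of the 2 ages differ in extent, since lamin B1 domains covered 27.2 Mb of chromosome 9 in the young list and 58.5 Mb in the old one, while the members went from 7 genes to 0.

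The 7 genes are neighbours in cluster 2, Olfr884, Olfr885, Olfr887, Olfr888, Olfr889, Olfr890 and Olfr891, and all lie in 1 young domain of 150 kb (chr9:38050001-38200000). The domain covered 6 of them in full and Olfr884 over 3.82% of its body. The forkhead and TATA box promoters printed above belong to this stretch. All 7 were also touched by a single H3K9me3 region of old livers, 200 kb long (chr9:38040001-38240000). In the young list H3K9me3 reached only the right-hand side of the domain (chr9:38120001-38240000) and touched Olfr889, Olfr890 and Olfr891. These genes were therefore in both young lists and, of the old lists, in that of H3K9me3 alone. Olfr884, Olfr885, Olfr887 and Olfr888 were in lamin B1 alone of the young lists and in H3K9me3 alone of the old ones. A gene missing from a list may still have carried the mark, so no gain or loss is established. Olfr893 and Olfr894, just beyond the lamin B1 domain, were in H3K9me3 regions at both ages.

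**Figure D1:**
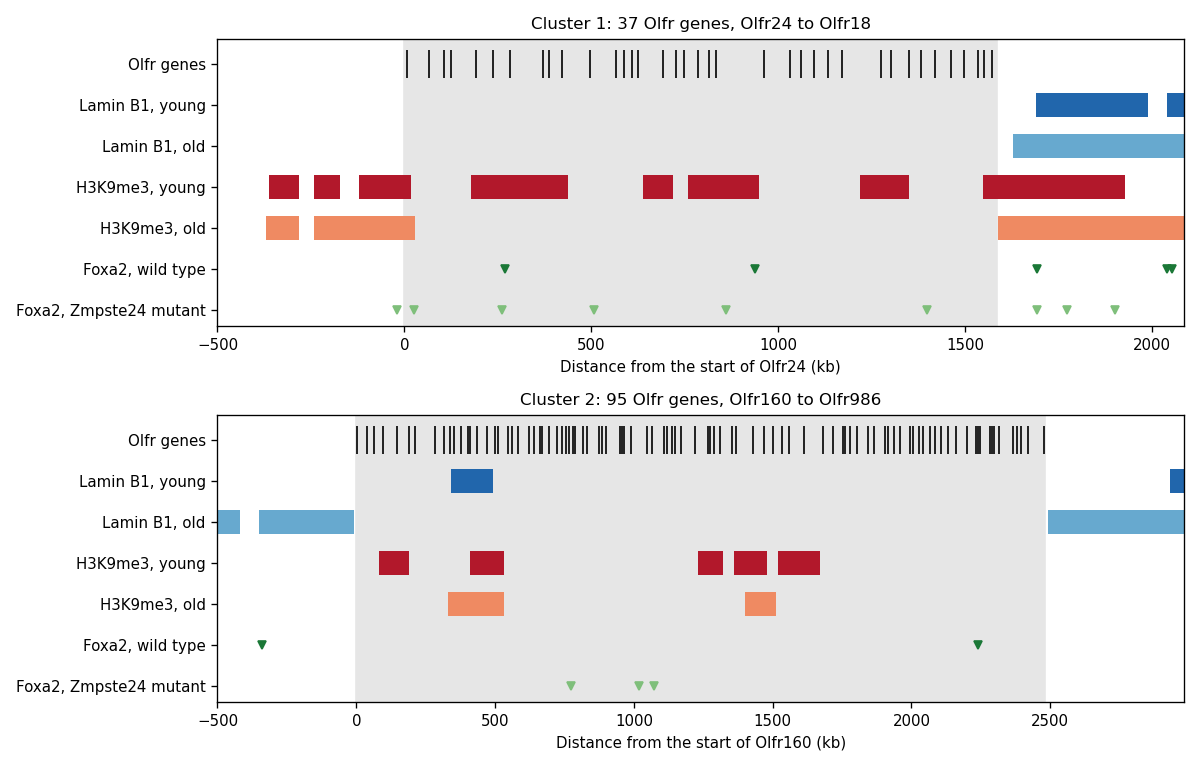
Called regions along both clusters of olfactory receptor genes, with the distance from the start of the first gene in kb on the horizontal axis and 500 kb of flank on each side (grey, cluster span; ticks, gene midpoints; bars, lamin B1 and H3K9me3 regions; triangles, Foxa2 site midpoints). The only lamin B1 bar inside a span is the young domain of 150 kb in cluster 2, and old lamin B1 bars stop within 10 kb of both edges of cluster 2.

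The map of the regions shows that old lamin B1 domains ended close to both edges of cluster 2. Before cluster 2 an old domain of 340 kb (chr9:37360001-37700000) ended 8.96 kb from Olfr160, the first gene. After it, an old domain of 680 kb (chr9:40200001-40880000) began 9.87 kb past Olfr986, the last gene. Old domains covered 84.2% of the 500 kb before cluster 2, 98% of the 500 kb after it and 0% of the 2481 kb between. The nearest other genes, Panx3 (a pannexin channel) on the left and Zfp202 (a zinc finger factor), 2.18 kb from the cluster, on the right, were both touched by lamin B1 in old livers only. The calls lie on windows of 10 kb, so no edge is known more finely than that.

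Cluster 1 had an old domain near its right side only, and farther off. An old domain of 2140 kb (chr9:20380001-22520000) began 43.9 kb past Olfr18 and touched Zfp560, the nearest gene, which lies 9.04 kb from the cluster. On the left the nearest old lamin B1 domain was 2972 kb away, and the nearest gene, Muc16 (a mucin), was touched by H3K9me3 at both ages and by no lamin B1 domain. Measured from gene bodies, the distance of the members to the nearest domain was 0 to 1676 kb with a median of 633 kb for the young list, and 8.96 to 1616 kb with a median of 657 kb for the old one. The medians of the other genes of the chromosome were 15.3 and 0 kb.

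H3K9me3 was found at more of the members, and at fewer in the old list than in the young one. In young livers 34 of 132 gene bodies (25.8%) were touched, against 17.1% of the other genes of the chromosome and 16.5% of all protein-coding genes. In old livers 13 (9.85%) were touched, against 29.4% of the other genes and 29.6% of all genes. The members thus went from 34 to 13 genes between the lists, while the other genes of the chromosome went from 184 to 317. By age, 26 members (19.7%) were touched in young livers only, against 6.49% of the other genes. A further 5 (3.79%) were touched in old livers only, against 18.8%. Both ages shared 8 members (6.06%), against 10.6%, and 93 members (70.5%) had no H3K9me3 region at either age, against 64.1%. The H3K9me3 lists hold fewer regions than the study describes for either age, so these counts, and the change between ages, hold for the listed regions only, and a gene without a region here may have had one in the fuller calls. The same 93 members had no lamin B1 domain either, so 39 members were touched by at least 1 of the 4 lamin B1 and H3K9me3 lists. This combined count was not made for the other genes. Of these, 15.7% had no lamin B1 domain at either age, so at most that share was outside all 4 lists.

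**Figure D2:**
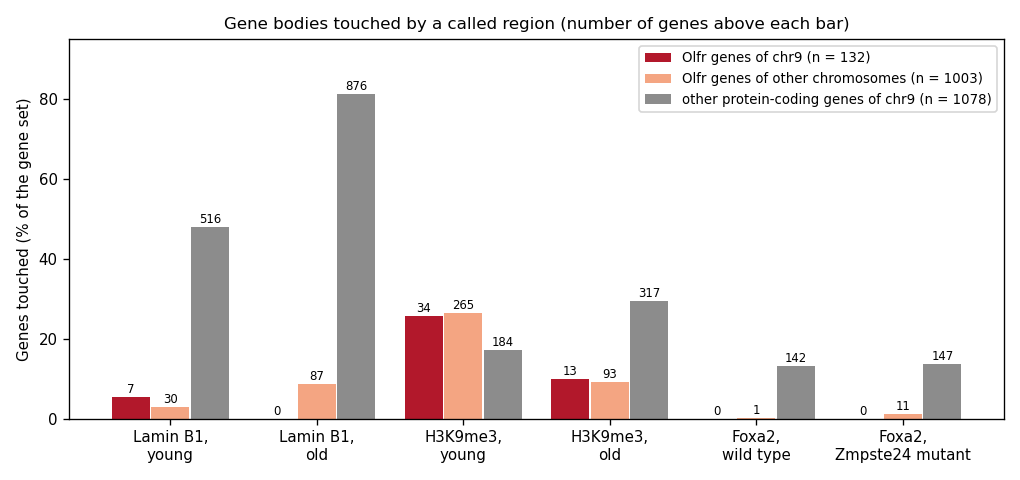
Share of genes, in % of each gene set, whose body was touched by a called region of each of the 6 lists, for the 132 olfactory receptor genes of chromosome 9, the 1003 on other chromosomes and the 1078 other protein-coding genes of chromosome 9 (the number of genes is above each bar). The bars of the other genes stand highest in every list but young H3K9me3, where 25.8% of the members were touched against 17.1%; there are no error bars because each list is a single merged call.

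The clusters differed in where the H3K9me3 regions lay. In cluster 1, young regions touched 16 of 37 genes (43.2%) and covered 45.1% of the span, whereas old regions touched Olfr24 alone and covered 1.8%. The young regions formed 6 blocks, and the largest number of genes in a block was 6, from Olfr832 to Olfr839-ps1 (chr9:18930001-19190000). The other blocks held Olfr24, Olfr849, Olfr853 to Olfr855 (3 genes), Olfr866 to Olfr868 (3 genes), and Olfr873 with Olfr18. Zfp317, the zinc finger gene inside the cluster, was also touched by H3K9me3 in young livers only. The flanks of cluster 1 went the other way: of the 500 kb before it, young H3K9me3 regions covered 54.3% and old ones 66.3%, and of the 500 kb after it 68.8% and 99.2%. An old H3K9me3 region of 640 kb began 3.91 kb past Olfr18.

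In cluster 2, young regions touched 18 of 95 genes (18.9%) and covered 23.8% of the span, and old regions touched 12 genes and covered 12.5%. The young regions formed 5 blocks. The first held Olfr876, Olfr877 and Olfr145, the next Olfr889 to Olfr894 (5 genes), and 3 neighbouring blocks held Olfr933 to Olfr146 (4 genes), Olfr938 with Olfr27 and Olfr943, and Olfr1537, Olfr945 and Olfr948. The old regions formed 2 blocks. One spanned Olfr884 to Olfr894 (9 genes), and the other (chr9:39110001-39220000) touched Olfr27, Olfr943 and Olfr944. No listed H3K9me3 region of either age lay within 500 kb outside cluster 2, so its blocks stood apart from other listed regions. The lists hold fewer regions than the study describes, so the flanks may hold heterochromatin that is not listed. Over both clusters together, young H3K9me3 regions covered 32.1% (19.6% of the rest of the chromosome) and old ones 8.33% (29.6%).

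The 8 members with H3K9me3 at both ages were Olfr24, Olfr889, Olfr890, Olfr891, Olfr893, Olfr894, Olfr27 and Olfr943. The 5 in old livers only were Olfr884, Olfr885, Olfr887, Olfr888 and Olfr944. Each of these 13 was covered in full by its old region, and 29 of the 34 young members were covered in full by theirs. Of the 11 young blocks, 4 were overlapped by an old region and 7 were not. The same share of all listed young regions was not counted. The study reports that many H3K9me3 regions of each age were not shared over the genome. The 7 blocks are therefore not shown to be particular to the clusters. Among the 4, the block of Olfr873 and Olfr18 met an old region only past the end of cluster 1, so these members were in the young list only. The 26 members of the young list only ran from Olfr832 in cluster 1 to Olfr948 in cluster 2. In order along the chromosome the members fell into 25 runs of the same state, and 10 of these runs had no listed region of either mark. The longest were the 34 genes from Olfr951 to Olfr986 (803 kb) and the 31 genes from Olfr143 to Olfr930 (679 kb), 65 genes in all in which the lists used here hold no lamin B1 or H3K9me3 region at either age. Such runs were not counted among the other genes of the chromosome.

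GC content moved with the lamin B1 lists along the whole chromosome and is given beside these counts. The 407 windows of 10 kb in the clusters had a median GC content of 37.6%, and the other 11711 windows of chromosome 9 had 42.6%. Outside the clusters, windows inside old lamin B1 domains had a median of 45.4% and windows outside them 39.9%. For young domains the medians were 44.1% and 42.2%. The listed domains were thus the richer in GC, whereas the study describes lamina-associated domains as A/T-rich. It also reports that CG-rich motifs were more prevalent in lamin B1 regions of old livers. A gene outside the old list is therefore not shown to lie away from the lamina. Old domains held 89.9% of the other windows with at least 44% GC, 55.7% of those at 42 to 44%, 26.2% at 40 to 42%, 8.47% at 38 to 40%, 1.55% at 36 to 38% and 1.33% below 36%. Of the cluster windows, 227 had a GC content under 38%, and in that range old domains held 0% of the cluster windows and 1.5% of the 1332 other windows. Between 40 and 42% the values were 0% of 46 cluster windows and 26.2% of 2075 other windows, and the bins above held only 12 and 5 cluster windows. The part of GC content in the count of 0 members in old lamin B1 was not tested.

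**Figure D3:**
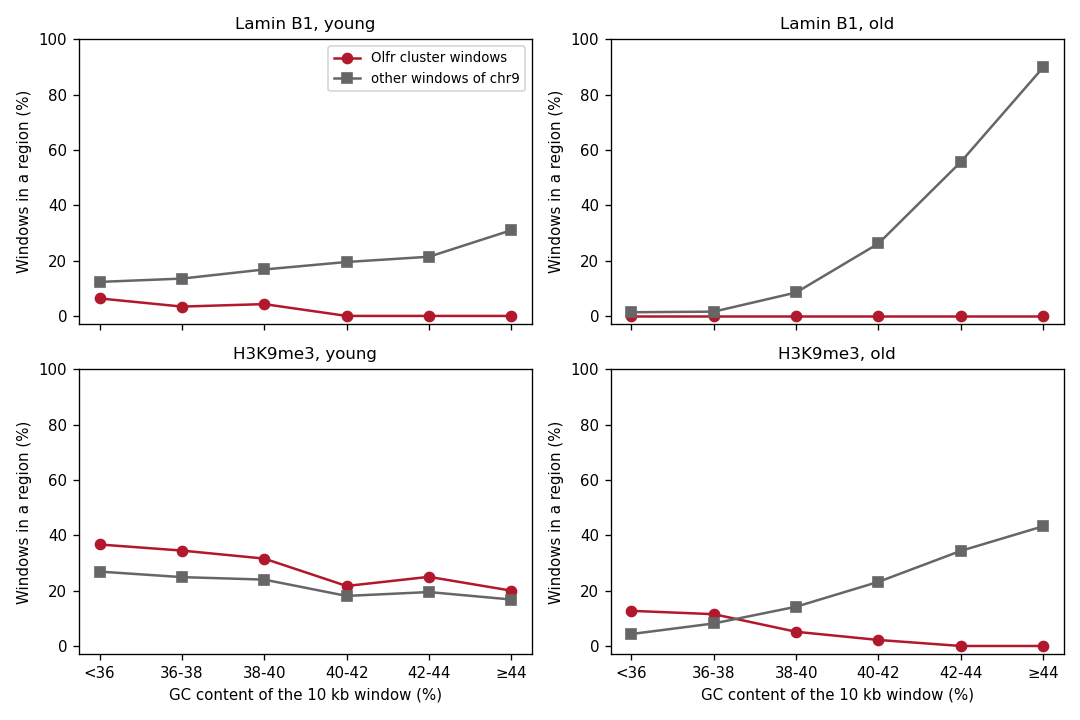
Share of 10 kb windows, in %, that lay in a called region of lamin B1 or H3K9me3 at each age, by the GC content of the window in %, for windows of the olfactory receptor clusters (red circles) and other windows of chromosome 9 (grey squares). Old lamin B1 rises from 1.33% to 89.9% of the other windows and stays at 0% in the clusters, and young H3K9me3 is higher in the clusters in every bin, with 12 and 5 cluster windows in the last bins.

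At matched GC content the other lists stood as follows. For young lamin B1 the cluster windows were at 6.33%, 3.38% and 4.27% in the bins below 36%, 36 to 38% and 38 to 40%, against 12.3%, 13.5% and 16.8% of the other windows, and at 0% against 19.5% between 40 and 42%. Young H3K9me3 was higher in the clusters, at 36.7%, 34.5% and 31.6% in the same bins, against 26.9%, 24.9% and 24%, and at 21.7% against 18.1% between 40 and 42%. Old H3K9me3 was at 12.7% and 11.5% of cluster windows in the lowest bins, against 4.32% and 8.15%, at 5.13% against 14.2% between 38 and 40%, and at 2.17% against 23.2% between 40 and 42%. The lower old H3K9me3 of the clusters as a whole was therefore not seen in windows below 38% GC, where the clusters stood above the rest of the chromosome. Windows of a cluster are neighbours and share regions, so they are not independent points.

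Reads that aligned to more than 1 place had been dropped, so the share of unique sequence was computed for these related genes. Of 40-base words sampled every 50 bases, 91.2% in the members' bodies occurred once in the genome, against 93.6% in the bodies of the other genes and 89.7% over the chromosome. Per gene the share ran from 54.8% (Olfr18) and 57.1% (Olfr952) to 100%, reached by 15 members such as Olfr923 and Olfr938, with a median of 94.2%. Only 10 members were below 80%. The cluster spans as a whole, gene bodies included, were lower, at 75.9% in cluster 1 and 83% in cluster 2. By windows of 10 kb the median was 87% in the clusters and 95.5% in the rest of the chromosome. Within the clusters, windows in young H3K9me3 regions had a median of 89.5% unique words and windows outside them 85%. The members touched by young H3K9me3 had a median of 95.9% and those not touched 93.3%. The order was the opposite for old H3K9me3, with medians of 92.9% for touched and 94.4% for untouched members, and for young lamin B1, with 88.4% and 94.3%. The part of uniqueness in these calls was not tested.

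Olfactory receptor genes of other chromosomes were read by the same rule to place chromosome 9. Of the 1003, 30 (2.99%) were touched by young and 87 (8.67%) by old lamin B1, and 265 (26.4%) by young and 93 (9.27%) by old H3K9me3. Among the 12 chromosomes with at least 20 Olfr genes, only chromosomes 6 (14.3%) and 4 (12.5%) stood above chromosome 9 for young lamin B1. For old lamin B1 it was one of 4 at 0%, with chromosomes 2, 6 and 17, while chromosome 4 reached 54.2%, chromosome 1 reached 25.9% and chromosome 11 reached 22%. For young H3K9me3, chromosomes 2 (53.7%), 10 (45.7%) and 6 (35.7%) stood above its 25.8%. For old H3K9me3, chromosomes 4 (41.7%), 11 (28%), 10 (12.9%) and 1 (11.1%) stood above its 9.85%.

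**Figure D4:**
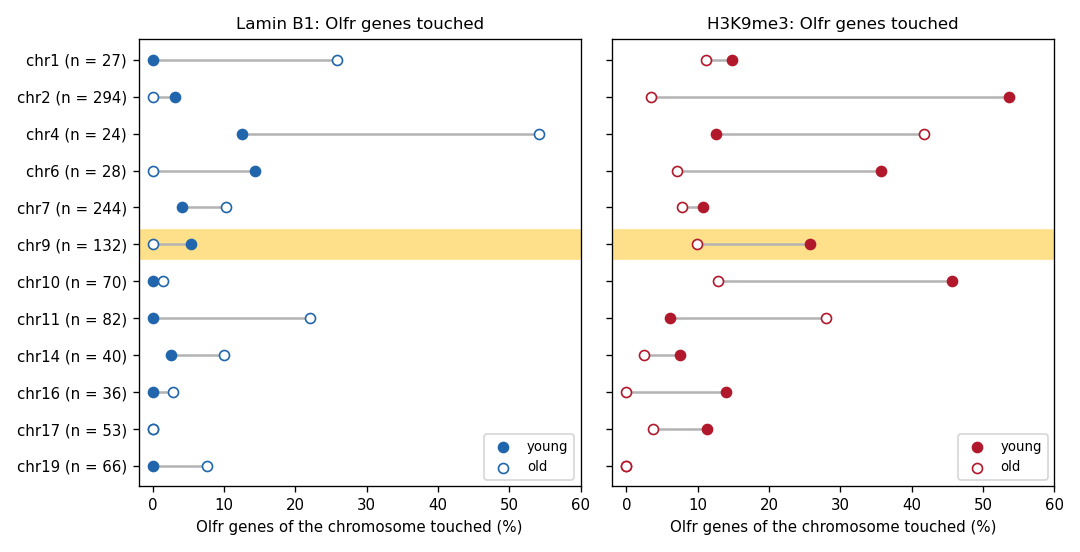
Share of the olfactory receptor genes of each chromosome with at least 20 of them, in %, touched by lamin B1 (left) and H3K9me3 (right) in young (filled) and old (open) livers, with chromosome 9 shaded and the number of genes beside each name. Chromosome 9 goes from 5.3% to 0% for lamin B1 and from 25.8% to 9.85% for H3K9me3, while chromosomes 4 and 11 go up for both marks.

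No olfactory receptor gene of chromosome 9 was touched by a Foxa2 site in either genotype. Among the other genes of the chromosome 13.2% were touched in wild-type and 13.6% in mutant livers, and among all protein-coding genes 10.6% and 13.5%. Olfr genes of other chromosomes were likewise rarely touched, 1 of 1003 (0.0997%) in wild-type and 11 (1.1%) in mutant livers. The members' bodies are shorter than those of the other genes (medians of 5.48 and 24.2 kb), and the part of length was not tested. Within the cluster spans, genes and gaps together, there were 3 wild-type sites (0.738 per Mb, against 2.26 per Mb in the rest of the chromosome) and 8 mutant sites (1.97 against 2.77 per Mb). None of the 11 sites overlapped a site of the other genotype. Over the genome the wild-type list holds 4960 sites and the mutant list 8177. The study reports that most sites of each genotype were not shared. That share was not counted here, so the lack of overlap is not shown to be particular to the clusters.

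Sequences are shown for the wild-type site nearest to a member, the mutant site nearest before a gene start, and the site chosen for its forkhead word. They give 150 bases of each site, with the forkhead word TGTTTAC in capitals where present. The mutant site 2.88 kb past Olfr921 was nearer to a member than the printed mutant sites and is not shown. The wild-type site beside Olfr975 was the closest of all to a gene body (150 bases at chr9:39947174-39947323 of GRCm38.p6, plus strand). The mutant site upstream of Olfr906 (chr9:38483274-38483423, plus strand) was the nearest before a gene start. The mutant site past Olfr869 (chr9:20150263-20150412, plus strand) was the only one of the 11 with a forkhead word.
Wild-type site by Olfr975: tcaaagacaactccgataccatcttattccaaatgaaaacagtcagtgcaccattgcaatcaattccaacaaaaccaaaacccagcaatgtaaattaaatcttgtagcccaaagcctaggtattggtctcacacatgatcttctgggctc
Mutant site by Olfr906: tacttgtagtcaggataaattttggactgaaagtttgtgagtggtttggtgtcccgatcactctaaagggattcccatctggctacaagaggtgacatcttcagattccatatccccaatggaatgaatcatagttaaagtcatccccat
Mutant site by Olfr869: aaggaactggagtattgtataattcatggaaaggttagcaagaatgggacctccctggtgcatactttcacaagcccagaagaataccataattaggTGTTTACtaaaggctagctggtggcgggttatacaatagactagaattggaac

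The wild-type site by Olfr975 (chr9:39946590-39947906) lay between the 3′ ends of a convergent pair, 0.225 kb past the end of Olfr975 and 1.42 kb past the end of Olfr974. The other wild-type sites lay in cluster 1, 10.5 kb before Olfr835 and 19.2 kb before Olfr857, and both were in young H3K9me3 regions. Olfr976, 6.23 kb away, completes the 5 members nearest to a wild-type site. Of the mutant sites, the nearest to members lay 2.88 kb past Olfr921, 3.23 kb before Olfr906, 5.68 kb before Olfr843, 5.83 kb past Olfr905 (the same site as that of Olfr906) and 10.8 kb past Olfr869. In all, 2 members had a wild-type site within 5 kb and 8 within 50 kb, and 2 and 21 members had a mutant site at these distances. The shares of the other genes at these distances were not counted. Median distances to a wild-type and a mutant site were 384 and 212 kb for the members, and 82 and 81 kb for the other chromosome 9 genes. The mutant list is the longer over the genome (8177 sites against 4960), so 21 against 8 is not shown to be particular to the members.

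Of the 8 mutant sites, 5 were in cluster 1 and 3 in cluster 2, and 1 of the latter (22.8 kb from Olfr919) lay in Vwa5a. The sites by Olfr835 and Olfr855 were in young H3K9me3 regions and the site by Olfr24 in an old one. At 12 weeks the Foxa2 mice were close in age to the young group of 3 months. The forkhead word was present in 0 of the 3 wild-type and 1 of the 8 mutant sites, against 26.8% of the 265 and 26.2% of the 324 sites in the rest of the chromosome. With 11 sites, these counts are too few to set the clusters apart from the rest.

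Genes that act with olfactory receptors were read by the same rule. Of 21 genes of olfactory transduction and receptor choice, which are spread over the genome, 8 were touched by young and 19 by old lamin B1, all but Rtp2, a receptor transport protein, and Cnga2, a subunit of the cyclic nucleotide-gated channel. The shares of all protein-coding genes were 38.8% and 64.8%. Among those touched at both ages were Adcy3, the adenylyl cyclase of the cascade, Lhx2, Ldb1 and Ebf1, which act at receptor gene enhancers, and Lbr, the lamin B receptor. H3K9me3 touched 3 in young livers (Lbr, Ric8b and Reep1) and 10 in old livers, beside 16.5% and 29.6% of all genes. Foxa2 touched Gnal, the olfactory G protein subunit, and Cngb1 in wild-type livers, and Gnal, Ric8b, Stoml3 and Ano2 in mutant livers, beside 10.6% and 13.5% of all genes.

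Other gene groups of chromosome 9 gave a range within which the receptor genes can be read. Among all 1078 other genes of the chromosome, 47.9% were touched by young and 81.3% by old lamin B1, and 17.1% and 29.4% by H3K9me3. The groups are small and neighbouring genes share regions, so their counts can rest on few regions. Of the 19 Zfp genes, 11 were touched by young and 17 by old lamin B1, and 14 by H3K9me3 at each age. Of 14 liver genes (apolipoproteins, cytochromes P450 and others), 4 were touched by young and 13 by old lamin B1 and 1 by H3K9me3 at each age. The 9 Mmp genes, a tandem cluster of matrix metalloproteinases, had counts nearer to those of the olfactory receptor genes, with 2 (Mmp20 and Mmp7) in young and 0 in old lamin B1, and 2 (Mmp12 and Mmp1b) in young and 0 in old H3K9me3. The 3 Casp genes, Casp1, Casp4 and Casp12, were in young H3K9me3 regions and in none of the other 5 lists. Foxa2 sites touched 3 Zfp and 2 liver genes in wild-type livers, 2 Zfp genes and 1 liver gene in mutant livers, and no Mmp or Casp gene. The shares of all other genes of the chromosome were 13.2% and 13.6%.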

How the data were processed

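The samples were grouped by their titles. Per the labels and methods, the authors used BWA to align reads to mm10 and Picard to remove duplicates, kept reads with a unique alignment, merged replicates and called lamin B1 domains with Epic in 10 kb windows, and Foxa2 sites with PeakSeq against input, with mutant Foxa2 reads sampled down to the wild-type number. The labels also name SICER for all samples, without saying for which step, and the methods leave the H3K9me3 caller unnamed. The methods give more lamin B1 reads for young than old livers and the reverse for H3K9me3. The authors deposited genome positions without signal or score. Lists of lamin B1 held 1624 young and 1519 old regions, and of H3K9me3 2784 and 2496, which is fewer than the study describes. H3K9me2 was not analysed here.

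Gene bodies (GENCODE M21, GRCm38.p6) were counted as touched at an overlap of at least 1 bp. Coordinates count from 1. Clusters were split at 1 Mb. Interval and word code was tested on simulated data. Python 3.11.15, numpy 2.4.6, pandas 2.3.3 and matplotlib 3.10.9 were used. Members and lists were chosen with earlier results of these data known. Named genes were the ends of clusters, regions and classes (all members of classes up to 10), nearest neighbours, the 5 members nearest to a Foxa2 site and the extremes of uniqueness. Genes that bound regions and runs, the promoters printed and the other named promoters were added after the values were seen. Alternatives changed the overlap rule, the region length, the cluster split, the gene set and the word length. Columns of other series numbered 0.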

Additional observations from a re-analysis of the deposited data

How the results depend on the processing

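Of 65 alternatives to 21 results, 57 stayed within their margin and 8 moved. The results are single counts or shares, which have no direction to change. The margin was wide for counts, with a tolerance of 1.5. For young H3K9me3, 41 members with bodies extended by 10 kb, against 34, still lay within it. So did 49 of 173 genes with pseudogenes added. Extending gene bodies by 10 kb gave 2 members in old lamin B1, Olfr160 and Olfr986 at the edges of cluster 2, in place of 0. Extending them for Foxa2 by 5 kb gave 2 members in each genotype, and by 50 kb gave 8 in wild-type and 21 in mutant livers. The other genes were not counted at these distances. Without genes longer than the longest member (26047 bp), the other genes of chromosome 9 were touched by H3K9me3 at 14.5% in young and 26.6% in old livers. Words of 60 bases raised the unique share of the members' bodies to 95.2%. Adding 41 Olfr pseudogenes, splitting clusters at 200 kb and dropping regions under 50 kb changed no statement.

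No paired analysis was possible because the lists hold merged calls with no value per replicate. Leaving out replicates and a stricter score were not run for the same lack. The lists give no read depth, and a region missing from a list was not called at its depth.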
